A study of Nicotiana tabacum with 18 samples.

Results

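The genes described here are 44 tobacco genes whose annotation names an NB-ARC domain, out of 69500 genes in the expression table. They were taken from the study's list of 1881 genes that differed between the hybrid Va116×GDH94 and its parent Va116, by their description alone, and all 44 identifiers had a row in the table. The members were thus selected on the expression difference between Va116×GDH94 and Va116, and their values in that cross are given as a description. RNA came from leaves of Nicotiana tabacum collected 45 days after transplanting in 6 genotypes with 3 libraries each: the hybrid Va116×GDH94, its parents Va116 and GDH94, the hybrid K326×GDH88, and its parents K326 and GDH88. All plants were grown in 1 randomized field trial without a treatment that the labels name, and by the study's sampling methods each replicate mixed leaves of several plants. The second cross shares no library with the contrast that chose the members, so tests were made there. GDH94 and GDH88 were also compared, although GDH94 is a parent of the hybrid in the contrast that chose the members.

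The NB-ARC domain is the nucleotide-binding switch of the main class of intracellular immune receptors of plants, often called NLR proteins. In the resting state the receptor is held closed with bound ADP, and recognition of a pathogen effector allows exchange for ATP, assembly of the receptor and a local defence response that can end in cell death. Leucine-rich repeats behind the NB-ARC domain commonly take part in recognition and autoinhibition. In tobacco and its relatives, receptors of this class include the N protein, which gives resistance to tobacco mosaic virus. Many NLR genes lie in clusters of related copies that differ between varieties, and their transcripts are usually kept low in healthy leaves.

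By the other terms of their description, 8 of the 44 members also carried a mannose-binding lectin term, 3 a leucine-rich repeat, 3 a late blight resistance protein R1 term (R1 is a receptor known from potato), 1 both a leucine-rich repeat and the R1 term, and 29 only NB-ARC. A lectin domain binds mannose-containing sugars and is not a usual part of an NLR receptor, so the 8 lectin members are called here by what their annotation says. Levels are read as FPKM (the table does not name its unit), read fragments scaled to transcript length and to the size of the library. Most members were weakly expressed: 23 of 44 reached a mean of 1 FPKM in at least 1 genotype, 21 did so in none, and 4 reached 10 FPKM.

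Across the 18 libraries the FPKM of all genes summed to between 887628 and 1062588, and between 41974 and 44138 genes were above 0. The study lists read numbers for the libraries of the first cross but not for those of the second. Counts per gene were not at hand, so no counting error was attached to low values. The leaf identity of the samples was checked on 3 genes of photosynthesis, all detected in every library: NtLhcb1 and NtLhcb2, which encode light-harvesting proteins, lay between 9.36 and 75.3 FPKM and between 25.6 and 89.9 FPKM, and NtrbcL, the large subunit of Rubisco, between 1.07 and 13.7 FPKM. NtLhcb1 averaged 72.4 ± 2.55 FPKM in Va116×GDH94, against 17.5 ± 0.303 FPKM in Va116 and 10.9 ± 1.24 FPKM in GDH94 (SD, n = 3 each), and its part in the NB-ARC values was not tested. In bulk leaf RNA, fewer expressing cells and less RNA per cell cannot be told apart. Replicates were tight in GDH94 and GDH88 (median SD over all genes 0.0772 and 0.0808 on the log2 scale) and looser in K326×GDH88 and K326 (0.152 and 0.135). The second library of K326×GDH88 had the lowest summed level of the members in its genotype and the highest FPKM total of the series, so results of that cross are also given without it.

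Summed over the 44 members, expression in Va116×GDH94 was 136, 126 and 129 FPKM, against 49.1, 54.7 and 53.7 FPKM in Va116 and 115, 112 and 111 FPKM in GDH94. In the second cross the order of the hybrid was the opposite: the sum was 71.7, 55.4 and 71.4 FPKM in K326×GDH88, against 113, 90.4 and 98.8 FPKM in K326 and 88.4, 85.4 and 86.5 FPKM in GDH88. The 2 highest members of a genotype made up 49.4% of the sum of Va116×GDH94, against 33.6% for Va116 and 43.4% for GDH94, and 48.3% of the sum of K326×GDH88, against 42.7% for K326 and 55.6% for GDH88. In 5 genotypes these were the same lectin members, and in Va116 they were Nitab4.5_0000295g0060 and Nitab4.5_0021935g0010. None of the 3 libraries of K326×GDH88 overlapped those of either parent in this sum. The first hybrid had the highest summed level of the 6 genotypes and Va116 the lowest, an order that the choice of members favours.

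**Figure D1:**
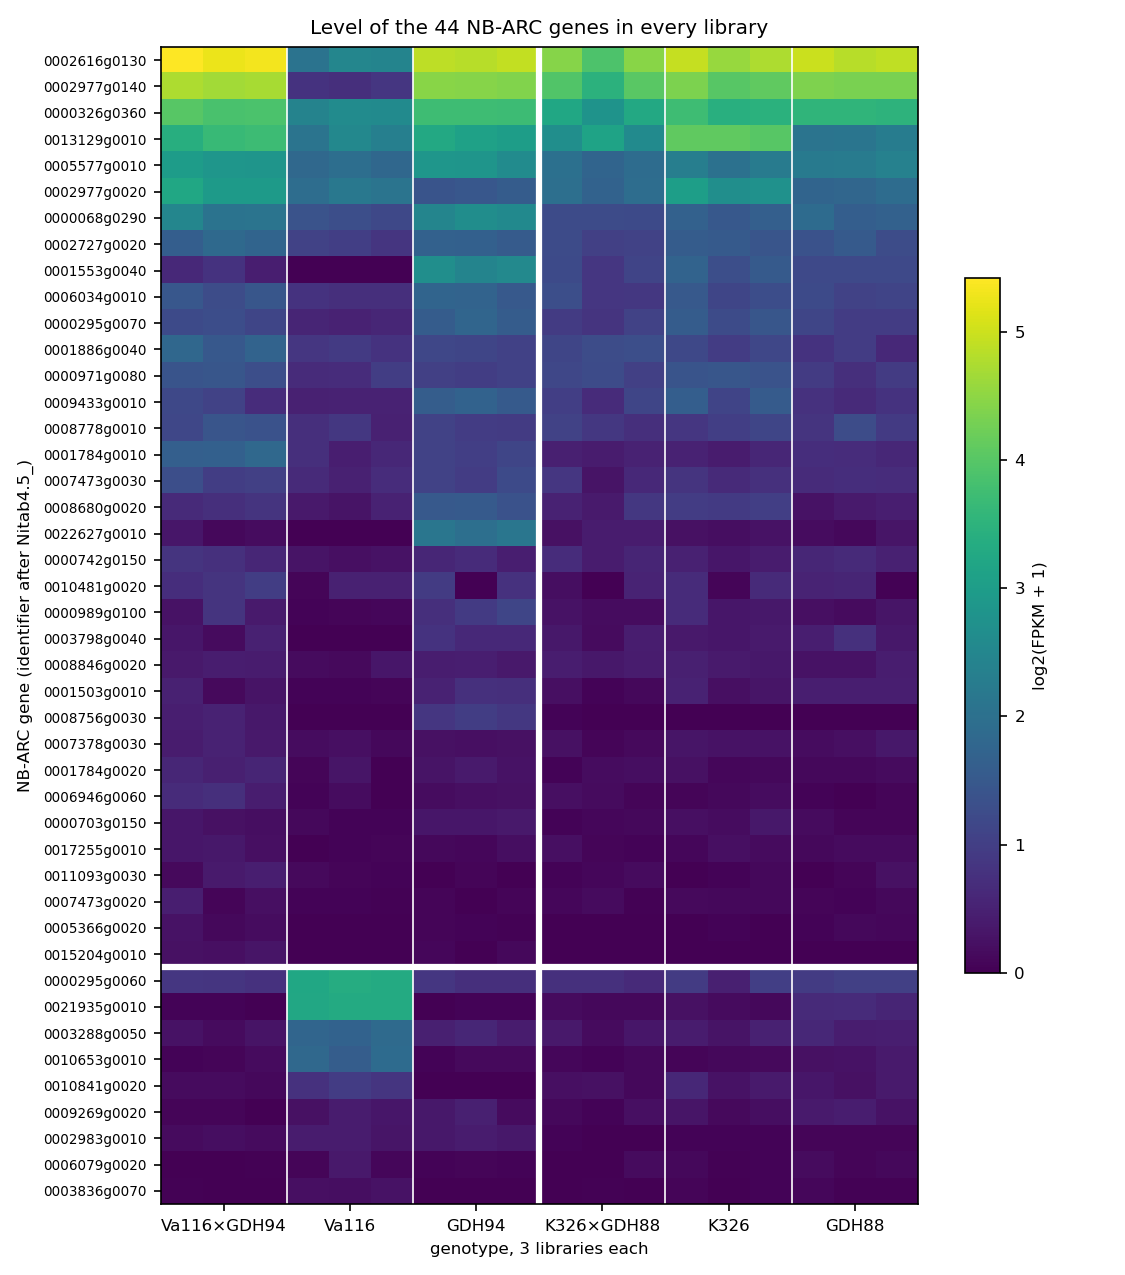
Level of each of the 44 NB-ARC genes as log2(FPKM + 1), by colour, in the 18 libraries (columns, 3 per genotype). The upper 35 genes had a higher mean in Va116×GDH94 than in Va116 and the lower 9 a lower one, and Va116 has the lowest mean of the 6 genotypes for 24 of the 35 and the highest for 8 of the 9.

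In the first cross, 35 of the 44 members had a higher mean in Va116×GDH94 than in Va116 and 9 a lower one. Of all 36068 genes tested in this cross, 1.91% were called higher and 0.676% lower in Va116×GDH94 than in Va116 at an adjusted p under 0.05 and a log2 difference of at least 1 (limma on log2(FPKM + 1)), and 6 members were called higher and 4 lower. Nothing is read from these counts, since the same contrast chose the members. Va116 had the lowest mean of all 6 genotypes for 24 of the 35 members that were higher in the hybrid, and the highest mean for 8 of the 9 that were lower. A low or high level in Va116 is favoured by the choice of members, and among the other 1837 genes of the same list, Va116 stood beyond the 5 other genotype means for 57% of those higher in the hybrid and 33.2% of those lower. The hybrid mean was nearer to GDH94 than to Va116 for 34 of the 44 members. A distance from Va116 is built into the choice of members, so nothing is read from this count. The hybrid mean was above both parents for 22 members, below both for 5 and between them for 17. Of all genes tested in this cross 36.6% were above both, 31.8% below both and 31.6% between. The 2 splits are not alike: the members were chosen on the hybrid and Va116, and 21 of them were below the 1 FPKM that the genes tested had to reach. No excess is read from them.

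The highest member of all was the lectin member Nitab4.5_0002616g0130. It had 41.8, 37.4 and 38.9 FPKM in Va116×GDH94, against 3.19, 4.57 and 4.45 FPKM in Va116 and 28.5, 27.5 and 29.2 FPKM in GDH94. The lectin member Nitab4.5_0002977g0140 had 25.9, 24.4 and 25.2 FPKM in Va116×GDH94, against 0.74, 0.65 and 0.81 FPKM in Va116 and 20.8, 20.7 and 20.1 FPKM in GDH94. Both genes were thus expressed strongly in every genotype other than Va116, and their mean was 9.67-fold and 34.3-fold higher in Va116×GDH94 than in Va116. In both, all 3 libraries of the hybrid also lay above all 3 libraries of GDH94, by 1.39-fold and 1.23-fold in the mean.

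Nitab4.5_0000326g0360, annotated with NB-ARC alone, had 15.2, 13.6 and 13.8 FPKM in Va116×GDH94, against 4.39, 5.11 and 5.07 FPKM in Va116 and 12.3, 12.3 and 12.1 FPKM in GDH94. Nitab4.5_0013129g0010, also with NB-ARC alone, had 9.48, 11.5 and 12.2 FPKM in Va116×GDH94, against 3.25, 4.76 and 4.07 FPKM in Va116 and 8.67, 7.63 and 7.13 FPKM in GDH94. In both the hybrid libraries lay above those of each parent. The lectin member Nitab4.5_0002977g0020 had a different order. It had 8.33, 6.69 and 6.69 FPKM in Va116×GDH94, against 2.84, 3.51 and 3.26 FPKM in Va116 and 1.66, 1.76 and 2 FPKM in GDH94, so the hybrid was 2.26-fold higher than Va116 and 4.01-fold higher than GDH94, which here was the lower parent.

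The 3 leucine-rich repeat members were all higher in Va116×GDH94 than in Va116. Nitab4.5_0005577g0010 had 6.98, 6.16 and 6.12 FPKM in Va116×GDH94, against 2.58, 2.88 and 2.53 FPKM in Va116 and 6.21, 6.1 and 5.08 FPKM in GDH94. Nitab4.5_0000068g0290 had 4.57, 3.21 and 3.26 FPKM in Va116×GDH94, against 1.61, 1.45 and 1.26 FPKM in Va116 and 4.49, 5.35 and 4.98 FPKM in GDH94. The hybrid libraries overlapped those of GDH94 in both. The weakly expressed Nitab4.5_0000989g0100 had 0.21, 0.76 and 0.32 FPKM in Va116×GDH94, against 0.04, 0.06 and 0.07 FPKM in Va116 and 0.67, 0.9 and 1.2 FPKM in GDH94. The member with both a leucine-rich repeat and the R1 term, Nitab4.5_0008680g0020, had 0.57, 0.65 and 0.76 FPKM in Va116×GDH94, against 0.3, 0.22 and 0.44 FPKM in Va116 and 1.85, 1.89 and 1.57 FPKM in GDH94, so the hybrid lay between its parents without overlap. The 3 R1 members stayed below 0.7 FPKM in every library of the series.

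Of the other members that reached 1 FPKM, 9 had means in Va116×GDH94 that were between 2.2-fold and 4.44-fold those in Va116. Their means in the hybrid lay between 0.997 and 2.35 FPKM, and 6 of them had a hybrid mean above both parents: Nitab4.5_0002727g0020, Nitab4.5_0001784g0010, Nitab4.5_0001886g0040, Nitab4.5_0000971g0080, Nitab4.5_0008778g0010 and Nitab4.5_0007473g0030. The clearest of these was Nitab4.5_0001784g0010, with 2.11, 2.16 and 2.56 FPKM in Va116×GDH94, against 0.65, 0.38 and 0.51 FPKM in Va116 and 1.09, 1.02 and 1.19 FPKM in GDH94. The other 3, Nitab4.5_0006034g0010 and the lectin members Nitab4.5_0000295g0070 and Nitab4.5_0009433g0010, lay between the parents in the mean. For Nitab4.5_0000295g0070 the values were 1.34, 1.43 and 1.2 FPKM in Va116×GDH94, against 0.48, 0.43 and 0.5 FPKM in Va116 and 1.98, 2.41 and 2 FPKM in GDH94.

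A further 4 members that reached 1 FPKM had the opposite pattern, high in Va116 and low in each other genotype. Nitab4.5_0021935g0010 was listed at 0.04, 0.04 and 0 FPKM in Va116×GDH94, against 8.53, 8.87 and 8.95 FPKM in Va116 and 0.01, 0.04 and 0.03 FPKM in GDH94. Nitab4.5_0000295g0060 had 0.81, 0.79 and 0.71 FPKM in Va116×GDH94, against 8.41, 9.21 and 8.99 FPKM in Va116 and 0.82, 0.66 and 0.67 FPKM in GDH94. In both genes the hybrid sat at the level of GDH94 and far from the mean of its parents. Nitab4.5_0010653g0010 had 0.04, 0.06 and 0.12 FPKM in Va116×GDH94, against 2.55, 2.01 and 2.74 FPKM in Va116 and 0.03, 0.1 and 0.1 FPKM in GDH94. The lectin member Nitab4.5_0003288g0050 had 0.21, 0.12 and 0.22 FPKM in Va116×GDH94, against 2.4, 2.24 and 2.69 FPKM in Va116 and 0.4, 0.5 and 0.33 FPKM in GDH94, below both parents. The 3 genotypes of the second cross were low in all 4 genes, with library values of at most 0.58 FPKM for Nitab4.5_0021935g0010 and at most 1.05 FPKM for Nitab4.5_0000295g0060.

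Several members had GDH94 as the high parent and no or nearly no transcript in Va116. Nitab4.5_0001553g0040 had 0.55, 0.73 and 0.37 FPKM in Va116×GDH94, against 0, 0.01 and 0 FPKM in Va116 and 5.36, 4.46 and 4.85 FPKM in GDH94. Nitab4.5_0022627g0010 had 0.26, 0.08 and 0.13 FPKM in Va116×GDH94, was listed at 0 in all 3 libraries of Va116, and had 3.35, 2.97 and 3.38 FPKM in GDH94. The hybrid reached 0.112 and 0.0485 of the GDH94 mean in these genes, well under the midpoint of the parents. Nitab4.5_0008756g0030 had 0.38, 0.44 and 0.28 FPKM in Va116×GDH94, was listed at 0 in Va116, and had 0.82, 0.98 and 0.85 FPKM in GDH94, so here the hybrid was at 0.415 of GDH94. In the second cross that gene did not exceed 0.03 FPKM in any library.

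**Figure D2:**
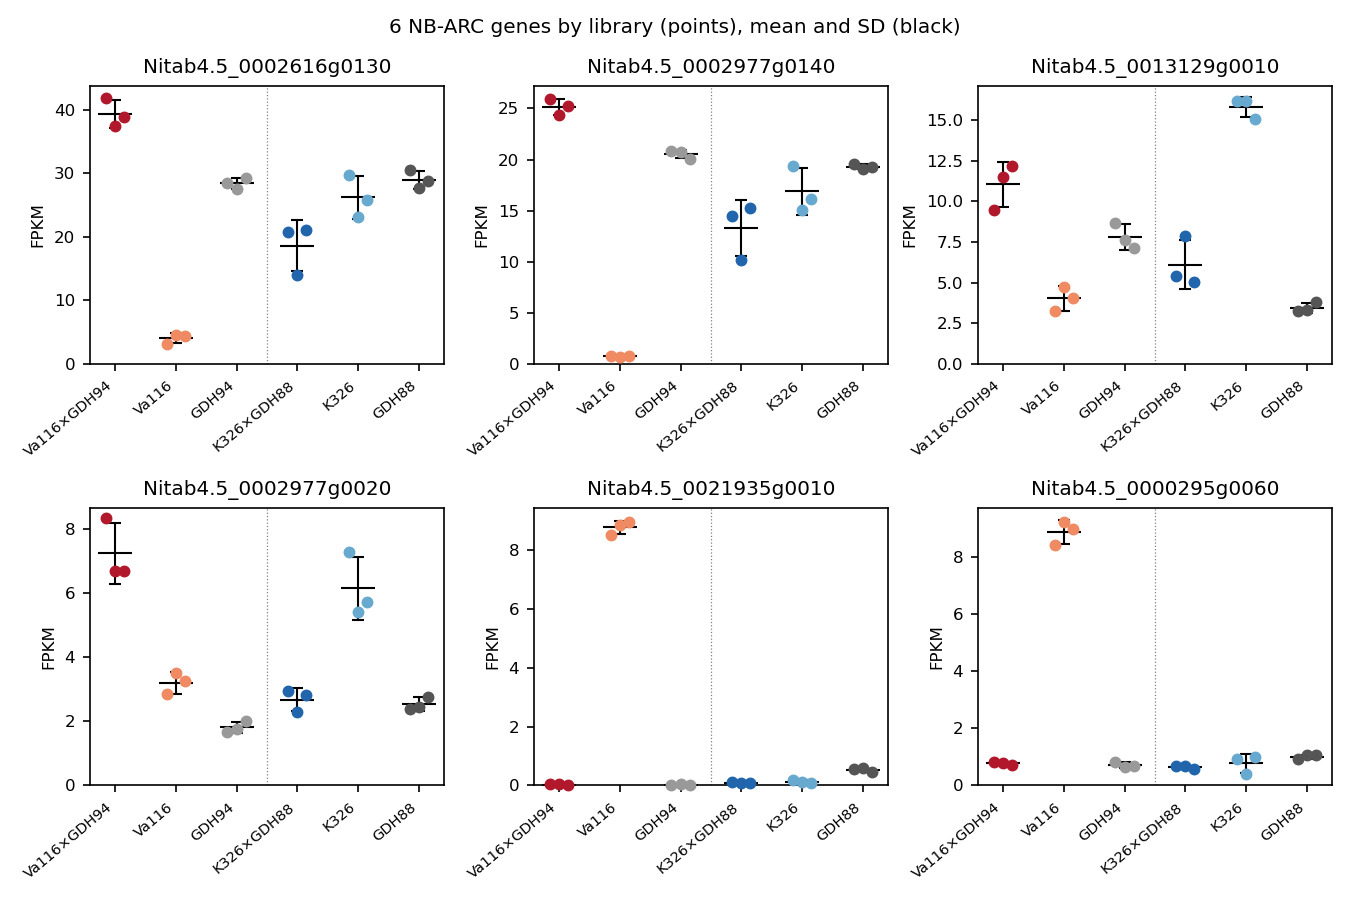
FPKM of 6 NB-ARC genes in each of the 18 libraries (points, linear axes from 0), with the mean and SD of each genotype in black. The first 4 genes had a higher mean in Va116×GDH94 than in Va116 and a lower mean in K326×GDH88 than in K326, and the last 2 were high in Va116 alone, at 8.41 to 9.21 FPKM.

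Some members lay on the same genome scaffold, which the digits before the letter g in the identifier give. There were 8 such members on 4 scaffolds, out of 40 scaffolds with a member. The neighbours Nitab4.5_0000295g0060 and Nitab4.5_0000295g0070 had opposite patterns in the first cross, the first high in Va116 and the second low there. The members Nitab4.5_0002977g0020 and Nitab4.5_0002977g0140 were both higher in the hybrid than in Va116 but differed in GDH94, which was low for the first and high for the second. The other pairs moved alike: Nitab4.5_0001784g0010 and Nitab4.5_0001784g0020 were 4.44-fold and 4.69-fold higher in Va116×GDH94 than in Va116, and Nitab4.5_0007473g0030 and Nitab4.5_0007473g0020 were 2.2-fold and 6.67-fold higher, the last from values of at most 0.38 FPKM. Reads that match several copies of a gene family may have been divided between them during the authors' quantification. Values of related members on 1 scaffold may therefore not be fully separate measurements.

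The genes next to the 23 better expressed members were also read, to see whether whole stretches of a scaffold moved. There were 29 such genes beside 18 members, of which 15 passed the filter of 1 FPKM in the first cross. In Va116×GDH94 against Va116, 1 was called higher and 1 lower, both of them mannose-binding lectin genes that the study's list also holds. Nitab4.5_0002977g0010, next to the lectin member Nitab4.5_0002977g0020, had 4.06, 4.29 and 2.52 FPKM in Va116×GDH94, against 0.04, 0.02 and 0.06 FPKM in Va116 and 5.3, 6.03 and 6.66 FPKM in GDH94. Nitab4.5_0002977g0130, next to the lectin member Nitab4.5_0002977g0140, was listed at 0 in all 3 libraries of Va116×GDH94, against 6.42, 4.86 and 8.03 FPKM in Va116 and 0, 0.33 and 0.21 FPKM in GDH94. Of the 4 lectin genes of this scaffold in the study's list, 3 were thus low in Va116 relative to the hybrid and 1 was high. All 4 were listed because they differed from Va116, and genes outside the study's lists had no description at hand.

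The members with the smallest differences were Nitab4.5_0008680g0020 and Nitab4.5_0008846g0020, 2.06-fold and 2.13-fold higher in Va116×GDH94 than in Va116, and Nitab4.5_0002983g0010, at 0.418 of the Va116 mean. The limit named in the study's methods is a log2 difference of 2, which is 4-fold, and 20 of the 44 members lay within 4-fold in the ratio of their deposited means. The 2 NB-ARC genes that appear in the portion at hand of the study's list against GDH94 but not in the list against Va116 are given for comparison. Nitab4.5_0000032g0080 had 0.37, 0.4 and 0.48 FPKM in Va116×GDH94, against 0.4, 0.54 and 0.52 FPKM in Va116 and 0.95, 0.99 and 0.93 FPKM in GDH94. Nitab4.5_0000070g0040 had 0.21, 0.18 and 0.12 FPKM in Va116×GDH94, against 0.27, 0.26 and 0.33 FPKM in Va116 and 0.55, 0.63 and 0.56 FPKM in GDH94. For these genes both the hybrid and Va116 were low and GDH94 was high.

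The question put to the second cross was whether K326×GDH88 differed from its own parents in the same genes. Of the 44 members 16 reached a mean of 1 FPKM in at least 1 genotype of that cross and were tested, and 28 were not. Against K326, 15 of the 16 lay below 0 in K326×GDH88 and 1 above, where 61.5% of all 35438 genes tested lay below 0. The median log2 difference was -0.39 for the members and -0.09 for all genes tested. At an adjusted p under 0.05 (limma with Benjamini-Hochberg adjustment over all genes tested), 8 members were lower and 0 higher (12 and 0 at an unadjusted p under 0.05), where 14.1% of all genes tested were lower and 9.49% higher. With the further limit of a log2 difference of at least 1, 1 member was lower and 0 were higher, where 0.451% of all genes were lower and 0.708% higher. The shares of all genes, here and below, are those at the adjusted p. No share was calculated at an unadjusted p, so nothing is read from the counts at that limit. Without the second library of K326×GDH88 2 members were lower at an adjusted p under 0.05, and the median was -0.31. Without the first or the third library of K326, 2 members were lower as well.

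The member past both limits was Nitab4.5_0013129g0010, with NB-ARC alone. It had 5.4, 7.86 and 5.07 FPKM in K326×GDH88, against 16.2, 16.2 and 15.1 FPKM in K326, without overlap, and 3.23, 3.29 and 3.82 FPKM in GDH88. The log2 difference of K326×GDH88 from K326 was -1.26 ± 0.13 (SE; adjusted p = 0.000288, limma). The lectin member Nitab4.5_0002977g0020 followed the same order, with 2.94, 2.28 and 2.81 FPKM in K326×GDH88, against 7.27, 5.42 and 5.73 FPKM in K326 and 2.37, 2.46 and 2.77 FPKM in GDH88. Its log2 difference from K326 was -0.95 ± 0.12 (SE; adjusted p = 0.000812, limma), just short of the fold limit. Both remained past an adjusted p of 0.05 under each of 19 alternative settings.

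Of the other 6 members past an adjusted p of 0.05, the lectin members Nitab4.5_0002616g0130 and Nitab4.5_0000295g0070 had log2 differences of -0.49 ± 0.14 and -0.48 ± 0.14. Nitab4.5_0001553g0040, Nitab4.5_0000326g0360 and Nitab4.5_0002727g0020, with NB-ARC alone, had -0.46 ± 0.14, -0.45 ± 0.13 and -0.40 ± 0.12. The leucine-rich repeat member Nitab4.5_0000068g0290 had -0.38 ± 0.12 (SE throughout). Each of these 6 lost its call in some of the 19 alternatives, among them the fit of the 2 genotypes alone and the fit without the second library of K326×GDH88. For the highest member, Nitab4.5_0002616g0130, the levels were 20.7, 14 and 21.1 FPKM in K326×GDH88, against 29.7, 23.1 and 25.8 FPKM in K326 and 30.5, 27.7 and 28.7 FPKM in GDH88, without overlap with either parent.

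The 8 tested members that did not pass against K326 had log2 differences between -0.50 and 0.13. The lectin member Nitab4.5_0009433g0010 was at -0.50 ± 0.17 (SE) and the lectin member Nitab4.5_0002977g0140 at -0.33 ± 0.14. Nitab4.5_0001886g0040, at 0.13 ± 0.14, was the only one above 0. It had 1.19, 1.38 and 1.46 FPKM in K326×GDH88, against 1.27, 0.96 and 1.22 FPKM in K326 and 0.73, 0.94 and 0.55 FPKM in GDH88, overlapping with K326.

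**Figure D3:**
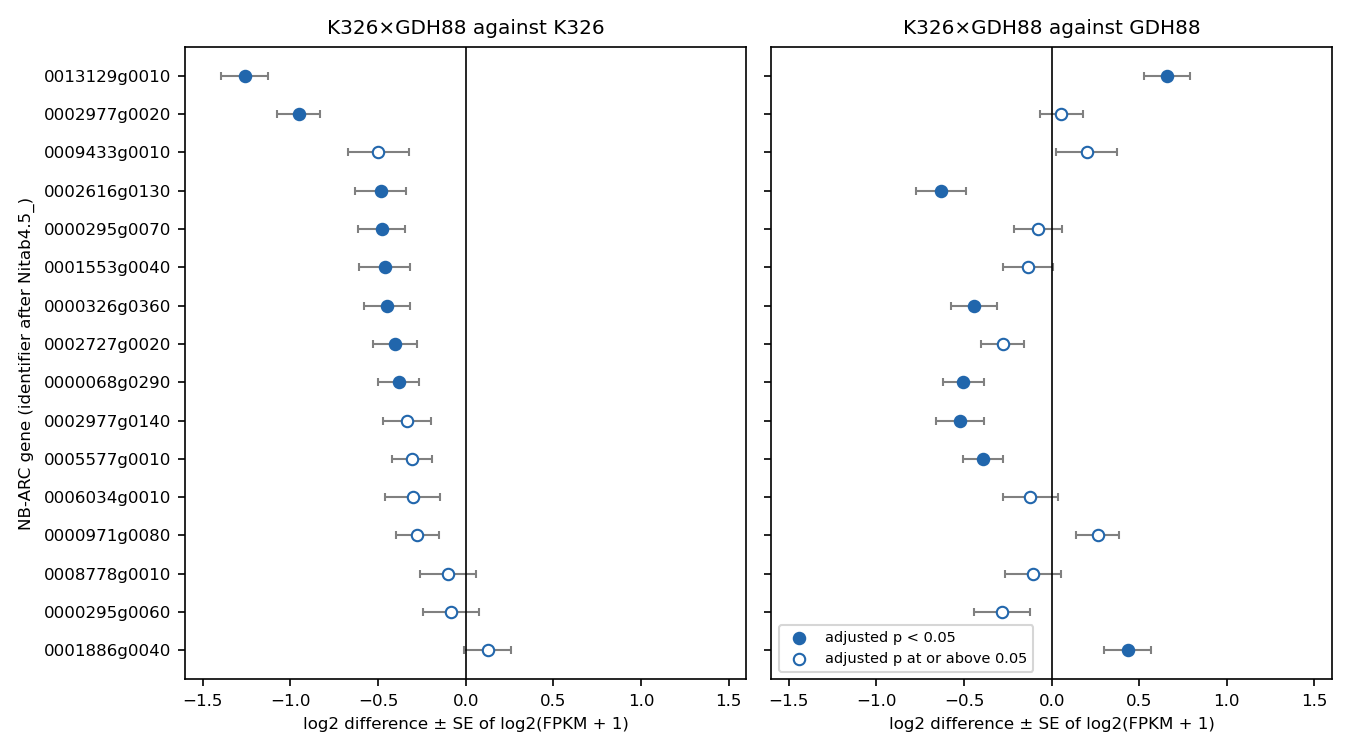
Log2 difference (± SE, on log2(FPKM + 1)) of K326×GDH88 from K326 (left) and from GDH88 (right) for the 16 NB-ARC genes tested, filled where the adjusted p was under 0.05. On the left 15 of 16 genes lie below 0 and 8 are filled, and on the right 11 lie below 0 and 7 are filled, 2 of them above 0.

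Against GDH88, 11 of the 16 members lay below 0 in K326×GDH88, where 64.6% of all genes tested did. The median was -0.13 for the members and -0.12 for all genes tested. By limma 0 members passed both limits, where 1.4% of all genes were higher and 0.934% lower. By adjusted p alone, 2 members were higher and 5 lower (2 and 6 at an unadjusted p under 0.05), where 10.5% of all genes were higher and 25.1% lower. The 5 lower members were Nitab4.5_0002616g0130 at -0.63 ± 0.14, Nitab4.5_0002977g0140 at -0.52 ± 0.14, Nitab4.5_0000068g0290 at -0.50 ± 0.12, Nitab4.5_0000326g0360 at -0.44 ± 0.13 and Nitab4.5_0005577g0010 at -0.39 ± 0.11 (log2 ± SE). The 2 higher members were Nitab4.5_0013129g0010 at 0.66 ± 0.13 and Nitab4.5_0001886g0040 at 0.43 ± 0.14. Without the second library of K326×GDH88, 3 members were lower and 1 was higher.

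Counted without a test over the 43 members detected in the second cross, all 3 libraries of K326×GDH88 lay below all 3 of K326 for 15 members and above them for 0, where 19% and 11.4% of all detected genes did so. Against GDH88 the hybrid lay below without overlap for 15 members and above for 3, where 29.6% and 12.6% of all detected genes did so. For 29 of the 44 members the mean of K326×GDH88 was below both parents, for 10 between them and for 3 above both, 1 was tied with a parent, and 1 was listed at 0 in every library of the cross. Of the 16 members tested, 11 were below both parents, 4 between them and 1 above both. Over all genes tested in this cross, 50.4% had a hybrid mean below both parents, 24.6% between them and 24.9% above both.

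Set against its mid-parent value (the average of the log2 levels of K326 and GDH88), K326×GDH88 was lower for 7 of the 16 members and higher for 0 at an adjusted p under 0.05 (10 and 1 at an unadjusted p under 0.05, limma), where 23.8% of all genes tested were lower and 10.9% higher. These were Nitab4.5_0002616g0130, Nitab4.5_0002977g0020, Nitab4.5_0000326g0360, Nitab4.5_0000068g0290, Nitab4.5_0002977g0140, Nitab4.5_0005577g0010 and Nitab4.5_0002727g0020, with differences between -0.56 and -0.34. By kind, 3 of the 5 tested lectin members, both tested leucine-rich repeat members and 2 of the 9 tested members with NB-ARC alone were lower. The lectin member Nitab4.5_0002977g0140 had 14.5, 10.1 and 15.3 FPKM in K326×GDH88, against 19.4, 15.1 and 16.1 FPKM in K326 and 19.6, 19.1 and 19.2 FPKM in GDH88. Its deviation was -0.43 ± 0.12 (SE; adjusted p = 0.0202, limma), and it overlapped with K326 in 1 library only. Without the second library of K326×GDH88, 5 members were lower.

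The level of all genes in K326×GDH88 depended on how libraries were scaled, which bears on these directions. As deposited, the median of all genes tested was -0.12 against GDH88 and -0.10 against the mid-parent value, and with median-ratio scaling these medians were 0.01 and 0.01. The members' median was then -0.35 against K326, -0.04 against GDH88 and -0.24 against the mid-parent value. With that scaling 14 members were tested, and 5 were lower and 1 was higher than the mid-parent value, where 14.2% of all genes tested were lower and 17.4% higher. Of all mid-parent calls 55.1% were higher, against 31.3% as deposited. Among all DEGs, genes past both limits, the share that were higher was 73.9% with median-ratio scaling and 61.1% as deposited for K326×GDH88 against K326, and 79.3% and 59.9% against GDH88. With libraries set to equal totals these shares were 41.9% and 46.3%. The median of the members against K326 was below 0 under each of these scalings.

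The parents of the second cross were also compared, to see how far the members varied between lines outside the first cross. Relative to GDH88, K326 had 2 members past both limits, both higher, where 1.2% of all genes were higher and 0.635% lower. These were Nitab4.5_0013129g0010, at 1.92 ± 0.13, and Nitab4.5_0002977g0020, at 1.01 ± 0.12 (log2 ± SE; adjusted p = 8.61e-06 and 0.00039, limma), with the levels given above. By adjusted p alone, 4 members were higher and 0 lower in K326 (7 and 0 at an unadjusted p under 0.05), where 6.56% of all genes were higher and 8.52% lower. Of these 4, Nitab4.5_0009433g0010 passed the filter only through K326, where it was high. The other 2 were Nitab4.5_0009433g0010 at 0.70 ± 0.17, with 2.09, 1.17 and 1.92 FPKM in K326 against 0.7, 0.56 and 0.73 FPKM in GDH88, and Nitab4.5_0000971g0080 at 0.54 ± 0.12, with 1.64, 1.73 and 1.62 FPKM in K326 against 0.93, 0.67 and 0.91 FPKM in GDH88. The call of Nitab4.5_0002977g0020 past both limits rested on a difference close to the limit of 1: 1 member was called without the first library of K326, and likewise without the first or the second library of GDH88.

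The lines GDH94 and GDH88 were compared in 1 fit of all 18 libraries, in which 23 members were tested. GDH94 is a parent of Va116×GDH94 and its mean was above that of Va116 for 33 of the 35 members that were higher in the hybrid, so the direction of the members in GDH94 is not independent of their choice and the counts describe them. Relative to GDH88, GDH94 had 3 members past both limits, all higher, where 1.61% of all genes were higher and 1.03% lower. By adjusted p alone, 12 members were higher and 2 lower, where 19.8% of all genes were higher and 7.71% lower. The median was 0.32 for the members and 0.12 for all genes tested. With median-ratio scaling 2 members were past both limits, the medians were 0.25 and 0.002, and 49% of all DEGs were higher in GDH94, against 61.1% as deposited.

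The 3 members were Nitab4.5_0022627g0010 at 1.89 ± 0.11, Nitab4.5_0001553g0040 at 1.36 ± 0.13 and Nitab4.5_0008680g0020, with leucine-rich repeat and R1 terms, at 1.09 ± 0.13 (log2 ± SE; adjusted p = 2.97e-09, 6e-07 and 1.16e-05, limma). Nitab4.5_0022627g0010 had 3.35, 2.97 and 3.38 FPKM in GDH94, against 0.13, 0.08 and 0.23 FPKM in GDH88. Nitab4.5_0001553g0040 had 5.36, 4.46 and 4.85 FPKM in GDH94, against 1.3, 1.28 and 1.3 FPKM in GDH88. Nitab4.5_0008680g0020 had 1.85, 1.89 and 1.57 FPKM in GDH94, against 0.21, 0.32 and 0.38 FPKM in GDH88. None of these genes overlapped between the lines. Nitab4.5_0022627g0010 and Nitab4.5_0008680g0020 reached 1 FPKM in GDH94 alone, so these 2 of the 3 passed the filter only through the line in which they were then called higher. Nitab4.5_0013129g0010, at 0.99 ± 0.14, was just short of the fold limit. The 2 members lower in GDH94 were Nitab4.5_0021935g0010 at -0.58 ± 0.10 and Nitab4.5_0002977g0020 at -0.33 ± 0.11. The first of these reached 1 FPKM in Va116 alone, a genotype of the contrast that chose the members. It thus entered this fit only through Va116 and stayed under 1 FPKM in both lines compared. Nitab4.5_0021935g0010, which was high in Va116, had 0.57, 0.58 and 0.47 FPKM in GDH88, the next highest level among the 6 genotypes.

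The 21 members below 1 FPKM in every genotype are given by their ranges. Without counts per gene, no counting error was set beside differences of a few hundredths of an FPKM. Their highest genotype means lay between 0.14 and 0.923 FPKM. Nitab4.5_0015204g0010 was listed at 0 in every library of K326×GDH88, K326, GDH88 and Va116, and had 0.19, 0.16 and 0.24 FPKM in Va116×GDH94 and 0.07, 0.01 and 0.08 FPKM in GDH94. Nitab4.5_0010841g0020, a lectin member, had 0.11, 0.12 and 0.08 FPKM in Va116×GDH94, against 0.7, 0.95 and 0.79 FPKM in Va116, and was listed at 0 in all 3 libraries of GDH94. Nitab4.5_0010481g0020 varied within genotypes more than between them, with 0.91, 0 and 0.71 FPKM in GDH94 and 0.45, 0.47 and 0.02 FPKM in GDH88. These 3, the other members below 1 FPKM that share no scaffold with another member, and the neighbouring genes named in the text were chosen for mention after their values were seen. When no filter was applied, 43 members entered the fit of the second cross, and 1 was past both limits against K326 and 0 against GDH88. By adjusted p alone 5 of these 43 were then lower than in K326 and 0 higher, and 9 were lower than in GDH88 and 2 higher. The share of all genes by adjusted p alone was not calculated for that fit, so nothing is read from these counts.

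Other genes of defence were read beside the members. The same list of the study holds 29 defence genes by description: 6 of the PR-1 family, 6 of PR-5 (thaumatin-like), 4 of PR-10, 1 of PR-4, 2 chitinases, 4 mannose-binding lectins without NB-ARC, 4 protease inhibitors, 1 lesion inducer and 1 R1 gene. PR proteins are secreted or cytosolic proteins that accumulate in infected or salicylic acid-treated tobacco leaves, and PR-1 is the usual marker of that response. This list too was drawn from the first cross, so its counts describe it and are not evidence of a direction there. In the second cross 23 of the 29 were tested. In K326×GDH88 4 were past both limits and higher than in K326 and 0 lower, and 13 were higher than in GDH88 and 0 lower, beside the shares of all genes given above. At an unadjusted p under 0.05 (limma) 7 were higher and 6 lower than in K326, and 17 higher and 2 lower than in GDH88. Their medians were 0.06 against K326 and 1.02 against GDH88.

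All 4 genes higher than in K326 were PR-1 genes. Nitab4.5_0003771g0010 had 633, 531 and 168 FPKM in K326×GDH88, against 4.57, 9.68 and 47.8 FPKM in K326 and 2.76, 1.27 and 1.34 FPKM in GDH88. Nitab4.5_0004861g0030 had 204, 150 and 52.5 FPKM in K326×GDH88, against 1.57, 1.79 and 13.3 FPKM in K326 and 0.87, 0.59 and 0.47 FPKM in GDH88. Their log2 differences were 4.75 ± 0.69 and 4.66 ± 0.61 against K326, and 7.15 ± 0.69 and 6.18 ± 0.61 against GDH88 (SE; adjusted p = 0.00147, 0.00091, 0.000109 and 0.000131, limma). No library of the hybrid overlapped with a parent, but the third library of K326×GDH88 was the lowest of its genotype and the third library of K326 the highest of its own in both genes. Between the parents, K326 had 10 defence genes past both limits relative to GDH88, all higher, and between 5 and 12 with a library left out (5 without K326 replicate 2, and 6 without K326 replicate 3, GDH88 replicate 1 or GDH88 replicate 2). The largest differences were those of Nitab4.5_0003771g0010, at 2.39 ± 0.69, and of the chitinase Nitab4.5_0005898g0010, at 2.08 ± 0.09 (log2 ± SE; adjusted p = 0.0398 and 4.04e-07, limma).

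Set side by side, the members and the PR-1 genes had different orders in K326×GDH88. The PR-1 genes are a part of the defence list that was not set apart in the planned comparisons. Over the whole list the median against K326 was 0.06, with 7 genes higher and 6 lower at an unadjusted p under 0.05 (limma). Within PR-1, Nitab4.5_0007488g0040 and Nitab4.5_0001477g0080 were at 0.06 and -0.44 against K326. Summed over the 6 PR-1 genes, the level was 1368, 1196 and 418 FPKM in K326×GDH88, against 40.3, 53.7 and 118 FPKM in K326 and 23.4, 21.7 and 18 FPKM in GDH88. The members' sum was at 0.656 of K326 and 0.762 of GDH88 in the same libraries. In the first cross the PR-1 sum was 75, 74.7 and 68.4 FPKM in Va116×GDH94, against 10.2, 11.2 and 10.5 FPKM in Va116 and 212, 212 and 208 FPKM in GDH94, and the members' sum was 2.49-fold that of Va116 and 1.16-fold that of GDH94. Va116 thus had the lowest sum of the 6 genotypes for both kinds of gene. Both lists were drawn from genes that differed between Va116×GDH94 and Va116, which favours this, so nothing is read from it. The relation between the sums was not tested.

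**Figure D4:**
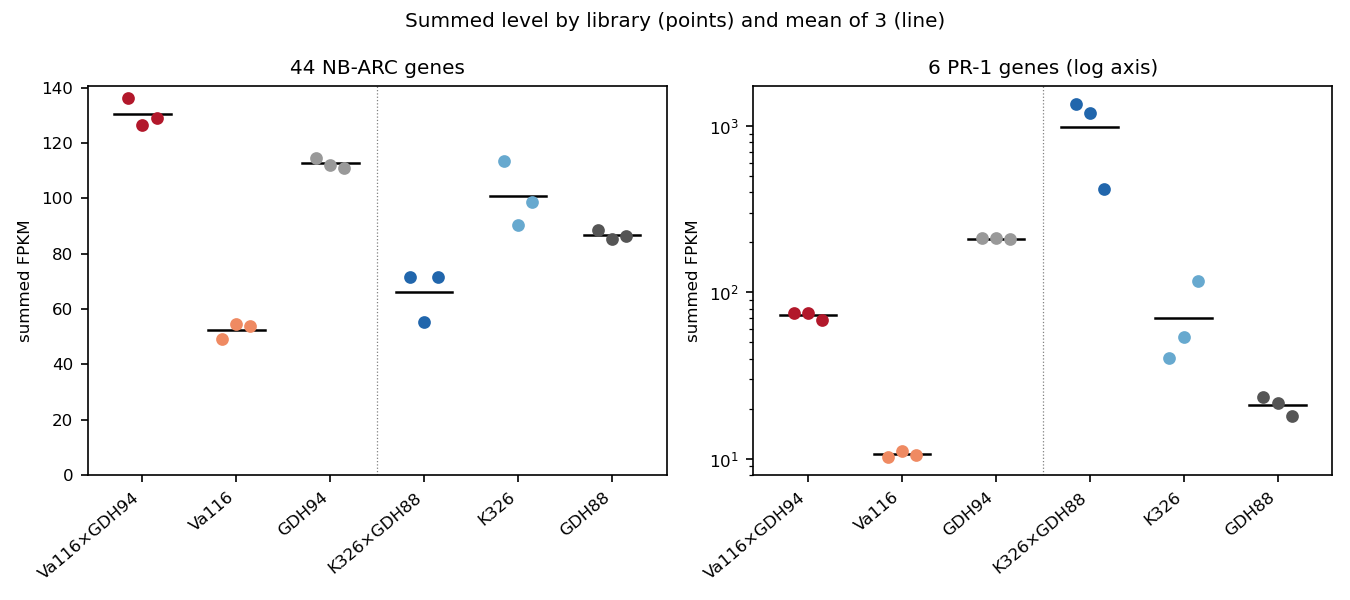
Summed FPKM of the 44 NB-ARC genes (left, linear axis from 0) and of the 6 PR-1 genes among the 29 defence genes (right, log axis) in each library (points), with the mean of each genotype as a line. K326×GDH88 lies below both parents on the left, at 55.4 to 71.7 FPKM, and above both on the right, at 418 to 1368 FPKM.

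Of 14 neighbours of the members tested in K326×GDH88, 0 were past both limits against either parent (limma). At an unadjusted p under 0.05, 1 was higher and 3 were lower than in K326, and 0 were higher and 8 lower than in GDH88. By adjusted p alone (limma), these 8 also passed against GDH88, at 0.00583 to 0.0446, beside 5 lower and 2 higher of the 16 members. Against K326, Nitab4.5_0008778g0020 and Nitab4.5_0001553g0030 passed, both lower, at 0.0169 and 0.0204 (limma). Of all genes tested 25.1% were lower than in GDH88 and 14.1% lower than in K326 by adjusted p. Against the mid-parent value 6 of the 14 were lower and 0 higher at an adjusted p under 0.05, beside the 7 of 16 members. Of all genes tested 23.8% were lower and 10.9% higher. The median was -0.32 for the 14 neighbours and -0.10 for all genes tested. Among the 6 lower neighbours, Nitab4.5_0002977g0010, the lectin gene next to Nitab4.5_0002977g0020, deviated by -0.45 ± 0.12 (SE; adjusted p = 0.0189, limma). In GDH94 against GDH88, 2 of 15 neighbours were past both limits, both higher, where 1.61% of all genes were higher and 1.03% lower. Nitab4.5_0001553g0030, beside Nitab4.5_0001553g0040, had 3.45, 3.62 and 3.53 FPKM in GDH94, against 1.14, 1.17 and 1 FPKM in GDH88, so both genes of this pair were higher in GDH94.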

How the data were processed

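The deposited table holds 1 value per gene and library. Its header and the study's methods do not name the unit, and the deposited values were read as FPKM from a working description of the table: they are not whole numbers and their totals differ between libraries, so they are neither counts nor TPM. To make these FPKM values the authors aligned paired-end reads of all 6 genotypes to the K326 genome with HISAT2 and quantified them with RSEM (the submitters' processing notes also name StringTie), with versions and build not given in the sources used here. Alignment of every genotype to K326, and the division of reads between similar genes, can change the level of a family that differs between varieties, and this was not tested.

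The members and lists were chosen with earlier results of these data known. Fold change and p-value columns of the study's lists were not used. Genes with a mean of at least 1 FPKM in any genotype of the fit were transformed to log2(FPKM + 1), which understates changes of low genes, and fitted with limma 3.58.1 (R 4.3.3, trended variance) on the 9 libraries of the second cross, or on all 18 for GDH94 against GDH88. P-values were adjusted by Benjamini-Hochberg over all genes tested. A DEG had an adjusted p under 0.05 and a log2 difference of at least 1, and the mid-parent contrast had no fold limit. The study's methods state a log2 limit of 2 for tests on counts, and that limit was tried as an alternative. The pipeline was tested on simulated data in which only better expressed genes changed, by more than most members did here. That run does not bear on smaller differences or on low genes. Named genes were members at 1 FPKM or more in any genotype, called members, members sharing a scaffold, the 2 NB-ARC genes outside the list and, per comparison and direction, up to 2 defence genes with the largest change. Groups hold 3 libraries numbered as replicates in the labels, from a field trial with 3 biological replicates, and 3 against 3 libraries allow no exact permutation p below 0.1, so only fits across all genes were used. Alternatives changed the pseudocount, filter, scaling, replicate block, fitted samples, limits or variance model, or left out 1 library.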

Additional observations from a re-analysis of the deposited data

Results flagged for a closer look

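In 14 of the 44 members all 3 libraries of Va116×GDH94 lay on one side of all 3 libraries of Va116 while all 3 libraries of K326×GDH88 lay on the other side of K326, and in 1 member both hybrids lay on the same side. Of all genes detected in both pairs 7.97% lay on opposite sides and 6.84% on the same side, and of the other genes of the study's list 17.3% and 17.5% did so. The difference between the crosses was not tested, because the first cross chose the members, and the first part of the condition is the contrast that chose them, so nothing is read from the 2 counts. Of these 14, 9 reached 1 FPKM in both crosses, all higher in the first hybrid and lower in the second. The ratio of K326×GDH88 to K326 in the mean was 0.652 for Nitab4.5_0000068g0290, 0.547 for Nitab4.5_0000295g0070, 0.713 for Nitab4.5_0000326g0360, 0.723 for Nitab4.5_0000971g0080 and 0.711 for Nitab4.5_0002616g0130. It was 0.626 for Nitab4.5_0002727g0020, 0.436 for Nitab4.5_0002977g0020, 0.754 for Nitab4.5_0005577g0010 and 0.387 for Nitab4.5_0013129g0010. The ratio of Va116×GDH94 to Va116 in the same 9 genes lay between 2.23 and 9.67.

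Against the GDH parent, 5 members lay on opposite sides in the 2 crosses without overlap and 7 on the same side, where 7.03% and 20.2% of all detected genes, and 11.7% and 30.6% of the other genes of the list, did so. Of the 5, 3 reached 1 FPKM in both crosses. The ratio of K326×GDH88 to GDH88 was 0.72 for Nitab4.5_0000326g0360, 0.643 for Nitab4.5_0002616g0130 and 0.689 for Nitab4.5_0002977g0140, and the ratio of Va116×GDH94 to GDH94 was 1.16, 1.39 and 1.23 in the same order of genes. This difference was not tested either. The values of Va116×GDH94 helped to choose the members, so nothing is read from the counts of 5 and 7.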

How the results depend on the processing

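Counts per gene and the read depth of the second cross were not at hand, so low members were not given a counting error. Members past both limits in K326×GDH88 against K326 numbered 1 as reported, 2 with a pseudocount of 0.1, 2 with a filter and pseudocount of 0.1, 2 with equal totals, 0 at a log2 limit of 2, 8 with no fold limit, and between 1 and 2 with a library left out. Against GDH88 they numbered 0, but 2 with a filter and pseudocount of 0.1 and 7 with no fold limit, and 0 with any library left out. In K326 against GDH88 they numbered 2, but 5 with a filter and pseudocount of 0.1, 0 at a log2 limit of 2, 4 with no fold limit, and between 1 and 2 with a library left out. Off the mid-parent value they numbered 7, but 0 at a log2 limit of 1, 11 with all 18 libraries in 1 fit, and between 5 and 8 with a library left out. In GDH94 against GDH88 they numbered 3, but 7 with a pseudocount of 0.1, 12 with a filter and pseudocount of 0.1, 0 at a log2 limit of 2, 14 with no fold limit, and between 3 and 4 with a library left out. The other alternatives stayed within 1.5 times of the reported count. By adjusted p alone, the 8 members lower in K326×GDH88 than in K326 were 2 in the fit of those 2 genotypes, 4 with quantile normalization, and between 2 and 9 with a library left out, 2 without K326×GDH88 replicate 2 and 2 without K326 replicate 1 or K326 replicate 3. No member past an adjusted p of 0.05 changed direction in any alternative. Alternatives for the defence genes were added after seeing the data. Defence DEGs in K326 against GDH88 numbered 10, and between 5 and 12 with a library left out.

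With the replicate number as a block, the counts past both limits or off the mid-parent value were 1, 0, 2, 7 and 3, as without it. Correlations of the deviations of same-numbered libraries lay between -0.03 and 0.22 in the 2 crosses, and 3 of the 9 libraries of each cross correlated best with a library of their own number, so the numbers were not taken as pairs.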
